A study of Capra hircus with 6 samples.

Results

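The 42 genes described here encode the chaperones and folding enzymes of the endoplasmic reticulum and the machinery of the unfolded protein response. They were chosen by name, with earlier results of these data known. The list held chaperones, disulfide isomerases, proline isomerases, stress sensors, degradation factors and translocon subunits, and all 42 were found among the 16285 genes of the series. The cells were goat (Capra hircus) adipose mesenchymal stem cells, a stromal cell population, with the treatment adipogenic differentiation in both groups. The 3 control libraries carried the genotype WT, and the 3 libraries of the other group carried the genotype overexpressing YAP. The titles and genotypes name YAP, whereas the design text of the series names a TAZ overexpression line, and the sources used here do not say how the protein was overexpressed. Values are FPKM, that is, counted fragments scaled to the length of the gene model and to the size of the library, and means are given ± SD with n = 3 in each group. Of the 42 genes, 41 had at least 1 FPKM in at least 3 libraries and were tested. The exception was DERL3, a derlin of the degradation machinery found mainly in secretory cells, with 0 to 2 reads per library (0 to 0.0367 FPKM).

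Proteins that enter the secretory pathway cross the membrane of the endoplasmic reticulum through the SEC61 channel and fold in its lumen. Chaperones such as BiP (gene HSPA5) and calreticulin hold the nascent chain, disulfide isomerases join its cysteines and proline isomerases speed the folding of proline-rich chains such as collagen. When unfolded proteins accumulate, the sensors IRE1 (ERN1), PERK (EIF2AK3) and ATF6 raise the genes of chaperones and of the machinery that returns misfolded chains to the cytosol for degradation, and PERK slows translation through eIF2alpha. Stromal cells secrete large amounts of collagen and other matrix proteins, so this machinery is abundant in them.

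Read totals recovered from the FPKM steps ran from 32593380 to 37131015 counted fragments per library. In the table that holds the YAP libraries, 3 further columns named pcDNA, a name also used for a family of expression vectors, held the same values as the 3 control libraries in all 16285 rows. Control and YAP values thus also stand in 1 table. YAP1 itself stood at 25.8, 27.0 and 28.9 FPKM in the controls and 28.4, 25.6 and 28.2 FPKM in the libraries labelled YAP, with no detectable rise (log2 change 0.008, 95% confidence interval -0.17 to 0.18, limma adjusted p = 0.95; exact two-sided permutation p = 1, smallest possible 0.1). The second group is therefore called the libraries labelled YAP, and values are listed in the order of the replicate numbers. The labels name no separate cultures or animals behind the replicates, so p-values measure the spread between these libraries, which may be technical. All 10 stromal markers were detected, with a sum of 21387 to 22710.4 FPKM in the controls and 24682 to 25154 in the libraries labelled YAP. This list did not move as 1: COL1A1, COL1A2, DCN, LUM, PDGFRB and THY1 rose, whereas ENG and NT5E fell (log2 changes -0.88 and -0.42, limma adjusted p = 2.2e-05 and 0.0019). VIM was lower in all 3 libraries labelled YAP without passing (limma adjusted p = 0.07), and PDGFRA overlapped. The 6 of 7 adipocyte markers found summed to 17.2 to 19.6 and 9.14 to 11.0 FPKM, nearly all of it CIDEC, and PPARG stayed below 0.08 FPKM. The part of the stromal and adipocyte shifts in the changes of the members was not tested. Plasma cells are rich in these genes, and of their 6 markers 4 were found, with sums of 162 to 176 and 158 to 164 FPKM that were nearly all SDC1, while POU2AF1 and IRF4 were at 0 in at least 4 of 6 libraries. The 7 leukocyte markers summed to 9.95 to 10.6 and 9.94 to 11.6 FPKM, nearly all LAPTM5, with AIF1 at 0 throughout. The 5 endothelial markers summed to 0.312 to 0.464 and 0.119 to 0.204 FPKM. The 5 epithelial markers (KRT18 at 0) summed to 0.134 to 0.498 and 0.114 to 0.207 FPKM, and the 3 of 5 muscle markers found (MYOG at 0) to 0.377 to 0.483 and 0.453 to 0.861 FPKM. In bulk libraries such as these, fewer cells of a type and less RNA per cell cannot be told apart.

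Several of the most abundant chaperones were lower in the libraries labelled YAP, while most other members did not pass the test. Of the 41 tested genes, 7 fell (17.1%) and 4 rose (9.76%) at a limma adjusted p under 0.05, against a background of 23.0% lower and 12.9% higher among all 10761 tested genes. The difference from the background was not tested. The 7 genes that fell were CALR, HSPA5, HSP90B1, MANF, DNAJB11, DNAJC10 and PDIA4, and the 4 that rose were HERPUD1, PDIA5, P4HB and SEC61A1. The median log2 change was -0.014 over the members and -0.095 over all tested genes. With median-of-ratios scaling these medians were 0.066 and -0.015, so the sign of the members' median turned. The groups did not overlap in 19 members, 11 lower and 8 higher. In all tested genes 48.3% did not overlap, 31.6% lower and 16.7% higher. Of the 11 calls, 7 (CALR, HSPA5, MANF, DNAJB11, DNAJC10, PDIA4 and HERPUD1) were also made in all 14 alternative fits. The count of higher members was 2 without control replicate 3, without YAP replicate 2 or without YAP replicate 3, and 1 without YAP replicate 1. The count of lower members ran from 6 to 8 over the 6 fits without a library, in which 2411 to 3606 of all tested genes were called in either direction. Calls over all genes were 64.0% lower in the FPKM as deposited and 45.6% lower after median-of-ratios scaling. With that scaling 5 members were higher and 6 lower, against backgrounds of 16.1% and 13.5%.

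**Figure D1:**
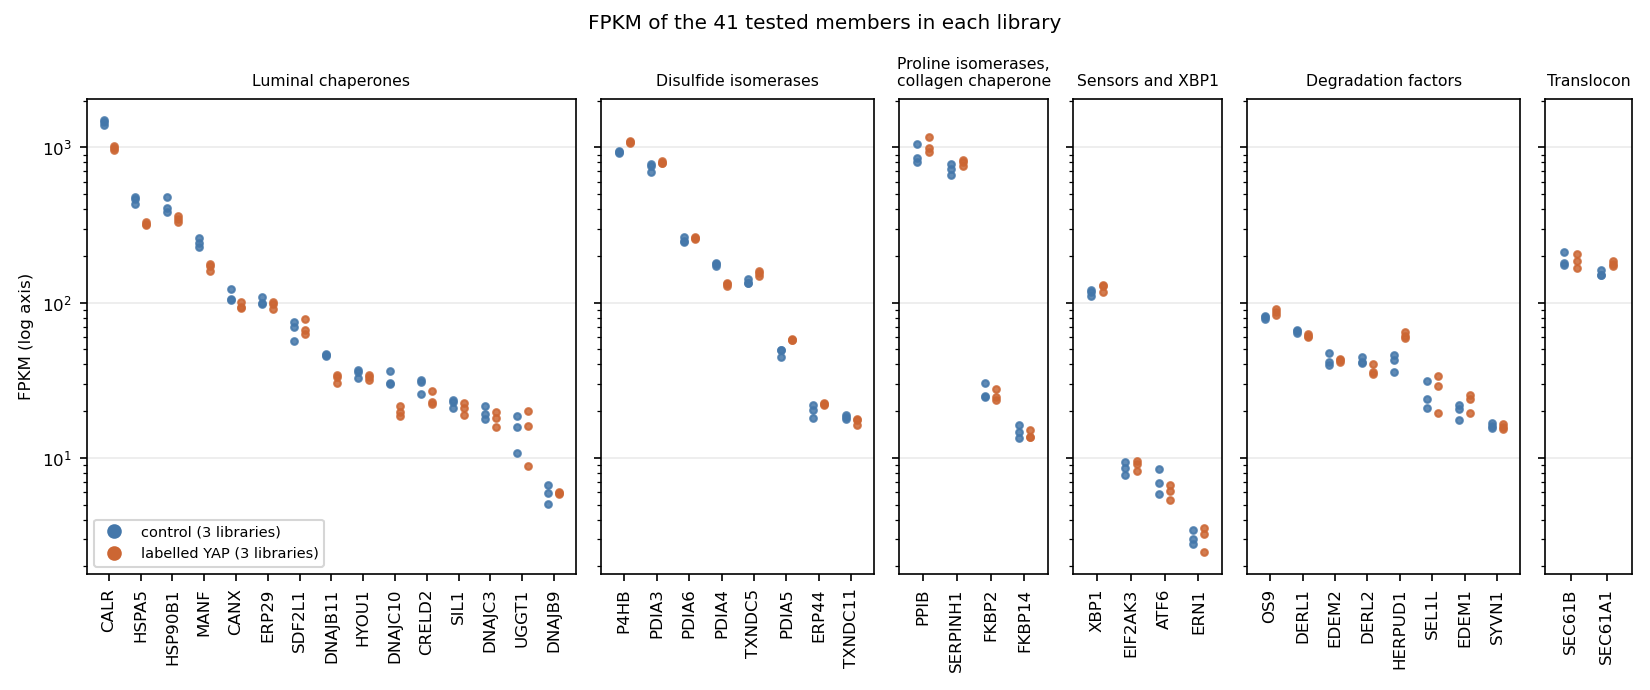
FPKM on a log axis of the 41 tested members in each of the 6 libraries, by role, with controls in blue and libraries labelled YAP in orange. CALR, the most abundant member in the controls, lies between 1404 and 1491 FPKM in the controls and between 959 and 1028 in the libraries labelled YAP, where P4HB is above it, whereas HERPUD1 is higher in all 3 of the latter.

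By role, 6 of the 7 genes that fell were luminal chaperones. Of 15 luminal chaperones, lectins and cochaperones, 6 fell (40.0%) and 0 rose by limma, with a median log2 change of -0.21 (0 higher at an unadjusted p under 0.05 and 0 by limma-voom on recovered reads). Over all tested genes 23.0% fell and 12.9% rose, with a median of -0.095, and the difference was not tested. With median-of-ratios scaling 5 of the 15 fell, against 13.5% of all tested genes, and their median was -0.12. In this group 13 of the 15 log2 changes were below 0, as was the median of all tested genes (-0.095). With median-of-ratios scaling HYOU1 (0), UGGT1 (0.035) and ERP29 (0.012) were no longer below 0. Summed over the 15 genes, the level was 3014, 3094 and 3077 FPKM in the controls and 2256, 2292 and 2235 FPKM in the libraries labelled YAP. The sums did not overlap. CALR, HSPA5 and HSP90B1 made up 73.3 to 76.8% of that sum, so it mainly describes these 3 genes. The 8 disulfide isomerases summed to 2256, 2352 and 2374 FPKM in the controls and 2527, 2565 and 2499 in the libraries labelled YAP, without overlap and with the higher values in the latter. P4HB carried most of that difference: without it the mean sums were 1396 and 1442 FPKM and overlapped. The degradation factors summed to 334, 327 and 342 FPKM in the controls and 357, 352 and 356 in the libraries labelled YAP, and without HERPUD1 the means were 293 and 294 FPKM, with overlap. The sum over all 42 genes, 7631, 8153 and 7826 against 7507, 7775 and 7303 FPKM, overlapped between the groups.

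**Figure D2:**
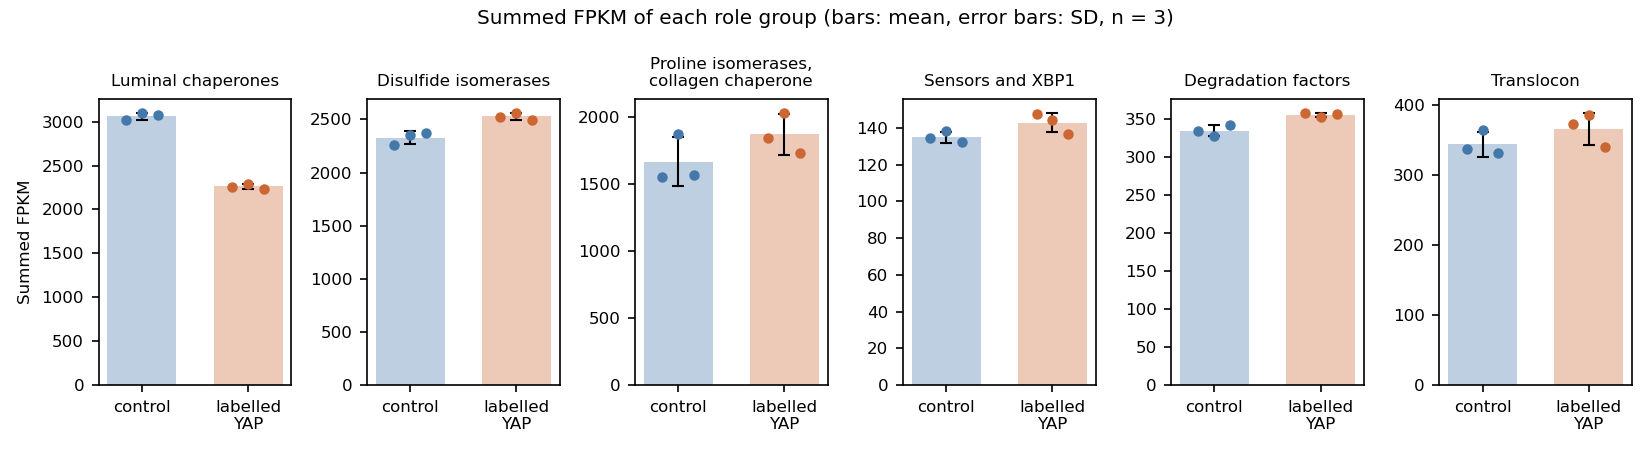
Summed FPKM of the genes of each role group, with a point per library, bars at the mean and error bars of 1 SD (n = 3 per group). The luminal chaperones are lower in the libraries labelled YAP (2261 ± 28.9 against 3062 ± 41.8 FPKM), and the higher sums of the disulfide isomerases and degradation factors overlap between the groups once P4HB and HERPUD1, respectively, are left out.

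Calreticulin, BiP and GRP94 are the major soluble chaperones of the lumen. CALR encodes calreticulin, a lectin chaperone and calcium store of the lumen, and was measured at 1458, 1491 and 1404 FPKM in the controls and 993, 1028 and 959 FPKM in the libraries labelled YAP. Every library labelled YAP lay below every control, a fall of 31.6% in mean FPKM (log2 change -0.55 ± 0.080 SE, adjusted p = 3.6e-04 by limma). HSPA5 encodes BiP, the central Hsp70 chaperone of the lumen and the factor that holds the stress sensors inactive. It stood at 432, 464 and 481 FPKM in the controls and 318, 322 and 329.7 FPKM in the libraries labelled YAP, again without overlap (log2 change -0.50 ± 0.076 SE, adjusted p = 4.6e-04 by limma). Each HSPA5 value rested on 26334 to 41771 reads, and the 3 libraries labelled YAP differed little among themselves (SD 5.84 FPKM). HSP90B1 encodes GRP94, the Hsp90 chaperone of the lumen, and stood at 383, 407 and 477 FPKM in the controls and 344, 329.8 and 359.5 FPKM in the libraries labelled YAP. It fell by a smaller amount (log2 change -0.29 ± 0.093 SE, adjusted p = 0.032 by limma). This call was lost without control replicate 3 (limma adjusted p = 0.1), without YAP replicate 1 (limma adjusted p = 0.11), without YAP replicate 2 (limma adjusted p = 0.07) and after median-of-ratios scaling (log2 change -0.20, limma adjusted p = 0.14). MANF, a small stress-inducible protein of the lumen that is also secreted, stood at 261, 243 and 228 FPKM in the controls and 173, 178 and 159.9 FPKM in the libraries labelled YAP. Its groups did not overlap, and it fell by 30.2% (log2 change -0.52 ± 0.082 SE, adjusted p = 6.2e-04 by limma).

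Of the cochaperones of BiP, DNAJC10 and DNAJB11 fell. DNAJC10 encodes ERdj5, a J-domain protein with reductase activity that prepares misfolded proteins for degradation, and was at 30.2, 29.7 and 36.1 FPKM in the controls and 19.9, 18.6 and 21.6 FPKM in the libraries labelled YAP. It showed the largest fall among the 41 tested members in the log2(FPKM + 1) values as deposited (log2 change -0.65 ± 0.10 SE, adjusted p = 3.7e-04 by limma). DNAJB11 encodes ERdj3, a J-domain protein that hands unfolded substrates to BiP, and was at 45.2, 46.7 and 46.0 FPKM in the controls and 34.1, 33.3 and 30.4 FPKM in the libraries labelled YAP. Its controls lay within 1.45 FPKM of each other, and all 3 libraries labelled YAP were below them (log2 change -0.48 ± 0.076 SE, adjusted p = 5.7e-04 by limma). The other J-domain cochaperones did not pass. DNAJC3, the P58IPK cochaperone, stood at 19.6 ± 1.98 FPKM in the controls against 17.9 ± 1.88 (limma adjusted p = 0.34), and DNAJB9, the ERdj4 cochaperone and a classic target of spliced XBP1, at 5.87 ± 0.798 FPKM in the controls against 5.96 ± 0.0656 (limma adjusted p = 0.86). The nucleotide exchange factors of BiP, HYOU1 (35.2 ± 2.01 FPKM in the controls against 33.0 ± 1.07) and SIL1 (22.5 ± 1.43 FPKM in the controls against 20.8 ± 1.85), had limma adjusted p = 0.39 and 0.37. Their values overlapped between the groups, as did those of DNAJC3 and DNAJB9.

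Among the remaining luminal genes none passed the test. CANX, the membrane-bound lectin partner of calreticulin, stood at 105, 105 and 122 FPKM in the controls and 93.9, 91.9 and 101 in the libraries labelled YAP. All 3 libraries labelled YAP were lower, but the change was smaller than that of CALR and missed the threshold (log2 change -0.21 ± 0.084 SE, adjusted p = 0.075 by limma). CRELD2, a stress-inducible protein of the lumen, stood at 29.4 ± 3.11 FPKM in the controls against 24.1 ± 2.58 (limma adjusted p = 0.051). It passed without control replicate 3 (limma adjusted p = 0.015) or without YAP replicate 2 (limma adjusted p = 0.018). SDF2L1, which forms a complex with BiP cochaperones, was at 67.2 ± 9.32 FPKM in the controls against 69.2 ± 8.49 (limma adjusted p = 0.78), and ERP29, a thioredoxin-fold chaperone, at 102 ± 6.21 FPKM in the controls against 96.3 ± 5.04 (limma adjusted p = 0.46). UGGT1, the glucosyltransferase that returns unfolded glycoproteins to the lectin chaperones, differed widely between replicates. It stood at 15.8, 10.8 and 18.7 FPKM in the controls and 16.0, 8.81 and 20.0 FPKM in the libraries labelled YAP, lowest in replicate 2 of both groups (log2 change -0.051, 95% confidence interval -0.59 to 0.49).

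**Figure D3:**
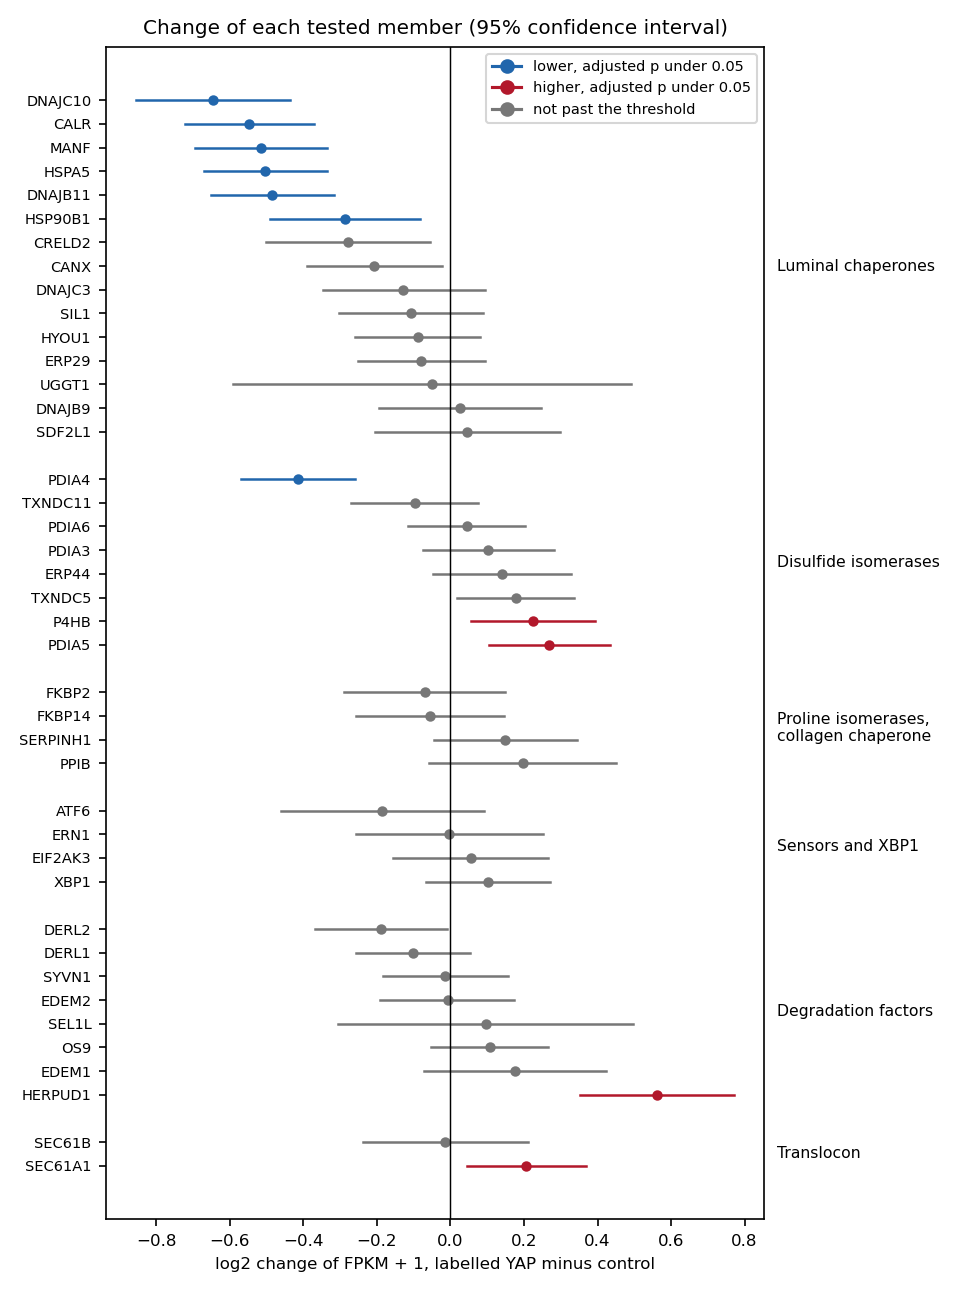
Log2 change of FPKM + 1 (libraries labelled YAP minus controls) of each tested member with its 95% confidence interval from limma, grouped by role and coloured by call. The 6 luminal chaperones that fell lie between -0.65 and -0.29, and HERPUD1, at 0.56, is the largest rise among the members.

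The disulfide isomerases included genes called in both directions. Of 8 tested, 1 fell (12.5%) and 2 rose (25.0%), with a median log2 change of 0.12, against the background of 23.0% lower and 12.9% higher. PDIA4, the ERp72 isomerase found in complexes with BiP, stood at 176, 179.6 and 171 FPKM in the controls and 135, 132 and 128 FPKM in the libraries labelled YAP. It fell without overlap (log2 change -0.41 ± 0.071 SE, adjusted p = 0.001 by limma). P4HB, the archetypal disulfide isomerase and also a subunit of collagen prolyl 4-hydroxylase, stood at 918, 947 and 931 FPKM in the controls and 1091, 1107 and 1067 FPKM in the libraries labelled YAP. Its groups were far apart relative to their spread, but its change was small (log2 change 0.22 ± 0.077 SE, adjusted p = 0.04 by limma). The P4HB call was lost when any 1 of the 6 libraries was left out, with limma adjusted p from 0.059 (without control replicate 2) to 0.17 (without YAP replicate 1). Its log2 change ran from 0.212 to 0.239 in these fits, and the call held with median-of-ratios scaling (limma adjusted p = 0.013). PDIA5 stood at 44.7, 49.5 and 49.6 FPKM in the controls and 57.7, 58.0 and 57.9 FPKM in the libraries labelled YAP, with 3 nearly equal values in the libraries labelled YAP. It rose (log2 change 0.27 ± 0.075 SE, adjusted p = 0.016 by limma), also with median-of-ratios scaling (limma adjusted p = 0.0046). The call was lost without YAP replicate 1 (limma adjusted p = 0.078). The count of higher isomerases was thus 0 without YAP replicate 1 and 1 without any other library.

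TXNDC5, an isomerase of matrix-secreting cells, stood at 142, 134 and 134 FPKM in the controls and 155, 149 and 159 in the libraries labelled YAP, above the controls in all 3 libraries but short of the threshold (log2 change 0.18 ± 0.072 SE, adjusted p = 0.076 by limma). With median-of-ratios scaling it passed (limma adjusted p = 0.017). PDIA3, the ERp57 partner of calreticulin and calnexin, was at 744 ± 46.4 FPKM in the controls against 798 ± 14.8 (limma adjusted p = 0.35). PDIA6 stood at 253 ± 10.1 FPKM in the controls against 261 ± 3.29 (limma adjusted p = 0.65). ERP44, which retrieves cargo from the early Golgi, stood at 18.0, 20.4 and 21.8 FPKM in the controls and 22.4, 22.2 and 21.8 in the libraries labelled YAP (limma adjusted p = 0.23). TXNDC11, a membrane-bound thioredoxin-domain protein, stood at 18.4 ± 0.606 FPKM in the controls against 17.1 ± 0.812 (limma adjusted p = 0.35). In 7 of these 8 genes the groups did not overlap, 5 higher and 2 lower, and PDIA6 was the exception. Over all tested genes the groups did not overlap in 48.3%, 16.7% higher and 31.6% lower, and the difference was not tested.

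The proline isomerases and the collagen chaperone HSP47 did not pass the test, at 0 of 4 genes by limma in either direction (0 at an unadjusted p under 0.05, and 0 by limma-voom). PPIB, cyclophilin B, stood at 852, 1045 and 807 FPKM in the controls and 999, 1159 and 933 FPKM in the libraries labelled YAP. Replicate 2 was the highest of its group in both groups (log2 change 0.20 ± 0.12 SE, adjusted p = 0.21 by limma), and without control replicate 2 the gene passed (limma adjusted p = 0.047). SERPINH1, which encodes HSP47 and binds folded procollagen, stood at 665, 788 and 723 FPKM in the controls and 811, 836 and 762 FPKM in the libraries labelled YAP. The highest control lay above the lowest library labelled YAP (log2 change 0.15 ± 0.088 SE, adjusted p = 0.21 by limma). FKBP14, a proline isomerase that binds collagens, stood far lower at 13.5, 14.6 and 16.2 FPKM in the controls and 13.6, 13.7 and 15.2 in the libraries labelled YAP (limma adjusted p = 0.66). FKBP2, a small proline isomerase of the lumen, stood at 25.1, 30.5 and 24.5 FPKM in the controls and 23.6, 27.8 and 24.6 in the libraries labelled YAP (limma adjusted p = 0.61). Both overlapped between the groups.

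The transcripts of the stress sensors were low and did not differ detectably in the main fit. None of the 3 sensors or XBP1 passed by limma (0 at an unadjusted p under 0.05, and 0 by limma-voom), and all 4 overlapped between the groups. ATF6, the membrane-bound transcription factor released by proteolysis, stood at 6.93, 5.82 and 8.49 FPKM in the controls and 6.15, 5.32 and 6.71 FPKM in the libraries labelled YAP (log2 change -0.19, 95% confidence interval -0.46 to 0.090). In the fit with a replicate block ATF6 passed as lower (limma adjusted p = 0.047). ERN1, which encodes the kinase and RNase IRE1, stood at 3.01, 2.77 and 3.44 FPKM in the controls and 3.22, 2.47 and 3.55 FPKM in the libraries labelled YAP (log2 change -0.004, 95% confidence interval -0.26 to 0.25). EIF2AK3, which encodes the kinase PERK, stood at 7.70, 8.61 and 9.43 FPKM in the controls and 9.11, 8.21 and 9.49 FPKM in the libraries labelled YAP (log2 change 0.055, 95% confidence interval -0.16 to 0.27). In ATF6 and ERN1 the lowest library of each group was replicate 2. XBP1, the transcription factor whose mRNA is spliced by IRE1, was the abundant gene of this group at 117, 121 and 111 FPKM in the controls and 129, 128 and 117 FPKM in the libraries labelled YAP (log2 change 0.10, 95% confidence interval -0.066 to 0.27, limma adjusted p = 0.32). FPKM per gene do not tell spliced from unspliced XBP1, and mRNA levels do not report the activation of the sensors.

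Replicates differed by gene length, and this touched the long sensor genes. Across the 41 tested members, whose gene models ran from 788 to 7933 bases, Spearman's rho between length and the deviation from the group mean was -0.68 in control replicate 2 and -0.83 in YAP replicate 2. It was 0.73 and 0.76 in replicate 3 of the same groups, and -0.09 and 0.44 in replicate 1. Over all 10761 tested genes the same library pattern was seen, with rho -0.50 and -0.57 in replicate 2, 0.43 and 0.52 in replicate 3 and -0.01 and 0.19 in replicate 1. These are descriptions over genes that share their libraries. Deviations of a group sum to 0, so its replicates are not independent. Between the groups, length and log2 change were unrelated over the same 41 genes (rho -0.01). When each library's trend on length was removed, an alternative added after seeing the data that also brings the median change of all genes to -0.004, 11 members were higher and 6 lower, against backgrounds of 19.4% and 16.7%. XBP1 then passed (log2 change 0.21, limma adjusted p = 0.016), as did PPIB (0.32, limma adjusted p = 0.0027), SERPINH1 (0.24, limma adjusted p = 0.015), TXNDC5 (0.26, limma adjusted p = 0.0044) and PDIA3 (0.21, limma adjusted p = 0.023). The 3 sensors did not pass, with the lowest limma adjusted p at 0.24. In this fit P4HB (limma adjusted p = 3.8e-04), PDIA5 and SEC61A1 passed, and HSP90B1 did not (limma adjusted p = 0.07).

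**Figure D4:**
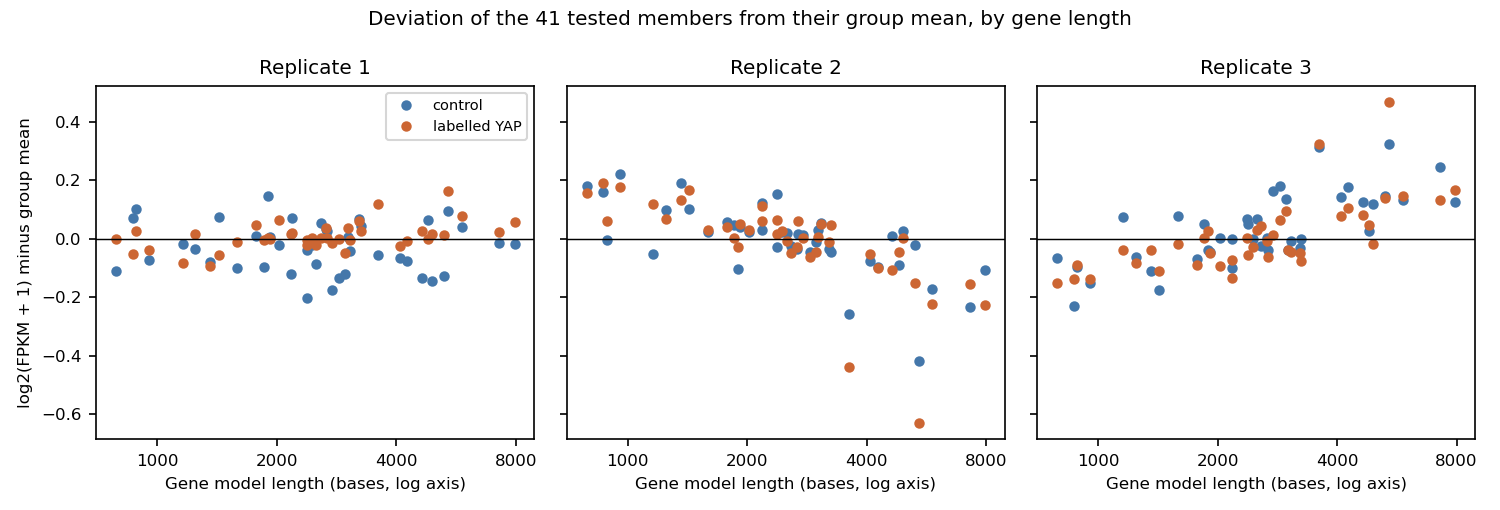
Deviation of log2(FPKM + 1) from the group mean against gene model length in bases (log axis) for the 41 tested members, with a panel for each replicate number, controls in blue and libraries labelled YAP in orange. In replicate 2 of both groups long genes lie below and short genes above the group mean, and in replicate 3 the slope is opposite.

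Among the degradation factors 1 gene stood out. HERPUD1 encodes Herp, a stress-inducible membrane protein that assembles the degradation complex around the ubiquitin ligase HRD1. It stood at 35.7, 46.0 and 42.9 FPKM in the controls and 61.2, 64.3 and 59.0 FPKM in the libraries labelled YAP. The lowest library labelled YAP was above the highest control, a rise of 48.1% in mean FPKM (log2 change 0.56 ± 0.10 SE, adjusted p = 0.001 by limma). It was the 1 gene called higher of 8 tested, and 0 fell by limma (1 lower at an unadjusted p under 0.05, DERL2, and 0 lower by limma-voom), with a median log2 change of 0.044. DERL2, a derlin of the channel that exports misfolded proteins, stood at 41.6, 40.6 and 44.4 FPKM in the controls and 34.8, 40.2 and 35.9 in the libraries labelled YAP. All 3 values were below the controls (log2 change -0.19 ± 0.082 SE, adjusted p = 0.093 by limma), and without YAP replicate 2 the gene passed (limma adjusted p = 0.048). Its relative DERL1 stood at 67.1, 64.0 and 65.7 FPKM in the controls and 62.6, 59.9 and 60.8 in the libraries labelled YAP, with no overlap and a small difference (log2 change -0.10 ± 0.070 SE, adjusted p = 0.28 by limma).

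The lectin OS9, which delivers glycoproteins to HRD1, was the most abundant degradation factor at 81.9, 81.3 and 78.2 FPKM in the controls and 86.9, 90.4 and 83.0 in the libraries labelled YAP. Its 3 libraries labelled YAP lay just above the controls (log2 change 0.11 ± 0.072 SE, adjusted p = 0.27 by limma). EDEM1, a mannosidase-like protein that marks glycoproteins for degradation, stood at 20.6, 17.6 and 22.0 FPKM in the controls and 24.1, 19.3 and 25.3 FPKM in the libraries labelled YAP, with replicate 2 lowest in both groups (log2 change 0.18 ± 0.11 SE, adjusted p = 0.24 by limma). With the length trend removed, OS9 (log2 change 0.19, limma adjusted p = 0.025) and EDEM1 (log2 change 0.24, limma adjusted p = 0.046) passed. SYVN1, which encodes HRD1, stood at 16.1 ± 0.570 FPKM in the controls against 15.9 ± 0.568 (limma adjusted p = 0.91). Its adaptor SEL1L stood at 25.5 ± 5.40 FPKM in the controls against 27.6 ± 7.30 (limma adjusted p = 0.71), with replicate 2 lowest in both groups, and EDEM2 at 42.7 ± 3.99 FPKM in the controls against 42.3 ± 0.809 (limma adjusted p = 0.95).

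Of the channel subunits, SEC61A1 passed the test and SEC61B did not. SEC61A1, the pore-forming subunit, stood at 163, 151 and 152 FPKM in the controls and 187, 178 and 173 FPKM in the libraries labelled YAP. The groups did not overlap (log2 change 0.21 ± 0.074 SE, adjusted p = 0.048 by limma), but the call was lost in 5 of the 6 fits without a library, with limma adjusted p up to 0.23 without YAP replicate 1, and held without control replicate 1. It was also lost without a variance trend (limma adjusted p = 0.069) and held with median-of-ratios scaling (limma adjusted p = 0.012). SEC61B, the small tail-anchored subunit, stood at 174, 213 and 179 FPKM in the controls and 186, 207 and 167 FPKM in the libraries labelled YAP, with replicate 2 highest in both groups (limma adjusted p = 0.93). SEC61A2, a close relative of SEC61A1 that is no member, fell from 13.8 ± 0.548 to 10.1 ± 0.432 FPKM (log2 change -0.42 ± 0.081 SE, adjusted p = 0.0023 by limma). The sources used here do not say how reads that fit both relatives were counted.

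Set against each other, the members of the folding arm and those of the sensing and degradation arm differed in their counts. Of 27 chaperones and isomerases, 7 fell (25.9%) and 2 rose (7.41%). Of 12 tested sensors and degradation factors, 0 fell and 1 rose (8.33%), with 1 lower at an unadjusted p under 0.05 and 0 lower by limma-voom. DNAJC10, which prepares misfolded proteins for degradation and fell, was counted in the folding arm, so the count of 0 depends on this placement. The background was 23.0% lower and 12.9% higher, so the folding arm's share of falls lay near it. Degradation factors outside the members did not share the count of 0 falls. Of 21 tested, 6 fell (28.6%) and 0 rose by limma, with 1 higher at an unadjusted p under 0.05. Their median log2 change was -0.13, and with median-of-ratios scaling 0 were lower and 1 higher. Among the members the median was -0.079 in the folding arm and 0.025 in the sensing and degradation arm. With median-of-ratios scaling the folding arm's median changed sign, at 0.012 beside 0.11, and the difference between the arms was not tested. Within the folding arm the falls were those of soluble luminal chaperones and PDIA4, whereas the 4 proline isomerase and collagen chaperone genes had log2 changes from -0.070 to 0.20.

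Ratios of members within a library do not depend on a common scaling factor of that library. They can still carry the replicates' pattern by gene length where the genes of a pair differ in length. CALR (1920 bases) to CANX (4086 bases), for example, was lowest in replicate 3 of both groups. In all, 12 ratios were computed for genes chosen after their values were seen, so they are given as a description with no test. The ratio of HSPA5 to HERPUD1 was 12.1, 10.1 and 11.2 in the controls and 5.2, 5.01 and 5.58 in the libraries labelled YAP. The ratio of CALR to P4HB was 1.59, 1.58 and 1.51 in the controls and 0.91, 0.928 and 0.899 in the libraries labelled YAP, so that CALR had the higher FPKM in every control and P4HB in every library labelled YAP. CALR to CANX was 13.8, 14.3 and 11.5 in the controls and 10.6, 11.2 and 9.5 in the libraries labelled YAP. PDIA4 to PDIA6 was 0.717, 0.724 and 0.647 in the controls and 0.524, 0.501 and 0.49 in the libraries labelled YAP, and DNAJC10 to DNAJC3 was 1.69, 1.54 and 1.66 in the controls and 1.11, 1.17 and 1.1 in the libraries labelled YAP. These 5 ratios were lower in every library labelled YAP than in any control. HSP90B1 to HSPA5 was higher in every library labelled YAP, at 0.886, 0.876 and 0.992 in the controls and 1.08, 1.03 and 1.09 in the libraries labelled YAP.

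Genes of the same pathway that are no members were taken from 8 lists. The stress transcription factors and the eIF2alpha arm counted 6 rises (33.3%) and 3 falls (16.7%) among 18 tested, beside a background of 12.9% and 23.0%, and the difference was not tested. The list had a median log2 change of 0.18. Without a library the count of rises ran from 4 (without YAP replicate 1) to 8 (without control replicate 2), and the median from 0.115 to 0.303. EIF2AK2, the interferon-induced eIF2alpha kinase PKR, rose from 3.46 ± 0.743 to 12.0 ± 2.79 FPKM (log2 change 1.53 ± 0.16 SE, adjusted p = 3.3e-05 by limma). CEBPB, a factor of stress, inflammation and early adipogenesis, rose from 57.2 ± 9.62 to 109 ± 13.8 FPKM (limma adjusted p = 1.7e-04). CHAC1, a glutathione-degrading target of ATF4, rose from 3.15 ± 1.02 to 6.03 ± 0.482 FPKM (limma adjusted p = 0.002). The other 3, named after their values were seen, were also stress-inducible genes: NUPR1 rose from 71.9 ± 16.3 to 122 ± 17.6 FPKM, TRIB3 from 9.23 ± 2.09 to 13.2 ± 0.652 FPKM and PPP1R15A from 23.2 ± 4.11 to 30.6 ± 4.66 FPKM. The TRIB3 call was lost without YAP replicate 1 (limma adjusted p = 0.053), and that of PPP1R15A without YAP replicate 1, YAP replicate 2, control replicate 1 or control replicate 3, with limma adjusted p from 0.11 to 0.15. ATF4, the translationally controlled factor downstream of PERK, stood at 357, 479.9 and 404 FPKM in the controls and 491, 555 and 461 in the libraries labelled YAP and missed the threshold (log2 change 0.28 ± 0.11 SE, adjusted p = 0.07 by limma). It passed with median-of-ratios scaling (limma adjusted p = 0.035). DDIT3, which encodes CHOP, stood at 13.8 ± 2.39 FPKM in the controls against 16.4 ± 3.15 (limma adjusted p = 0.22). The 3 that fell, likewise named after their values were seen, were the amino acid sensing kinase gene EIF2AK4 (from 12.5 ± 1.83 to 8.66 ± 0.437 FPKM), EIF2S1, which encodes eIF2alpha (from 21.6 ± 1.27 to 16.0 ± 1.38 FPKM), and ATF6B, a relative of ATF6 (from 18.1 ± 0.649 to 15.2 ± 1.02 FPKM). The ATF6B call was lost in 4 of the 6 fits without a library (control replicate 1 or 2, YAP replicate 1 or 3), with limma adjusted p from 0.092 to 0.18, and with median-of-ratios scaling (limma adjusted p = 0.21).

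**Figure D5:**
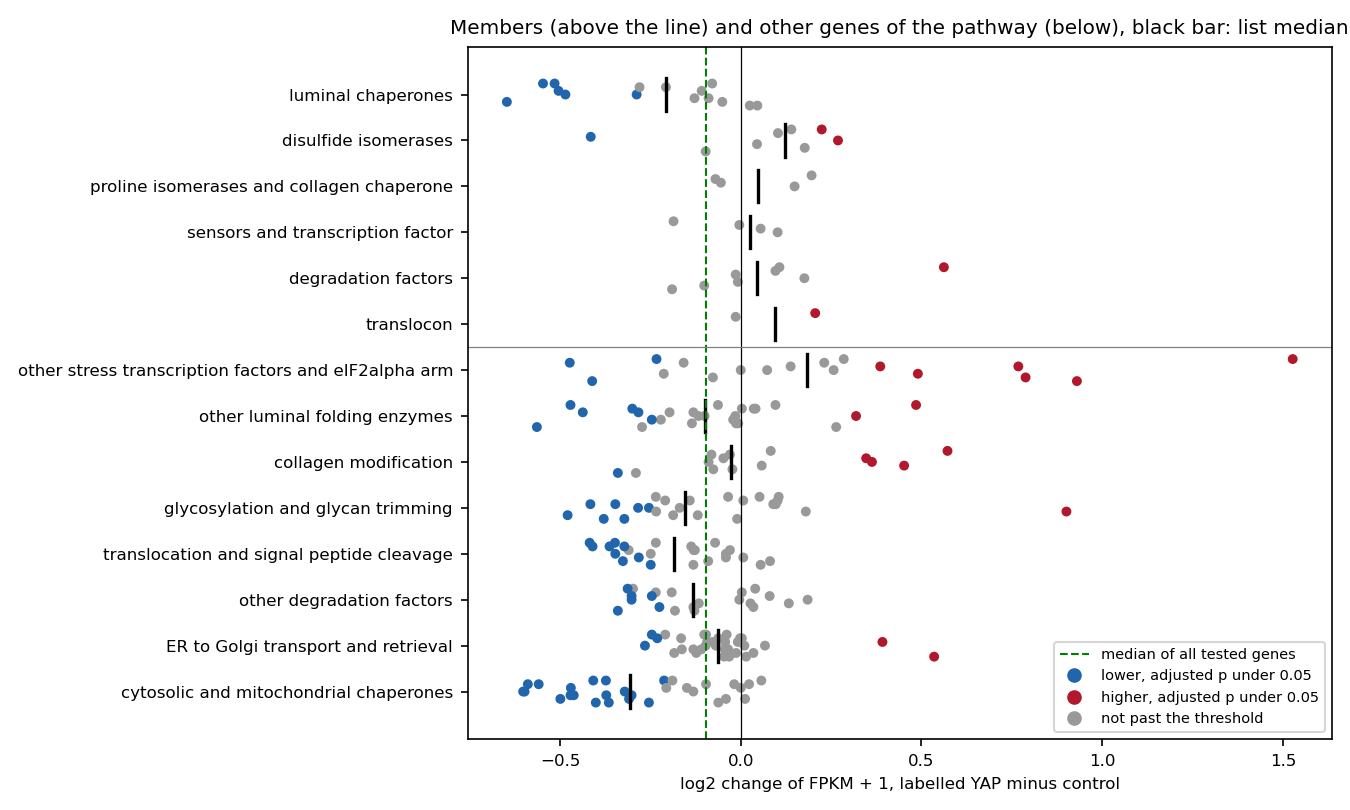
Log2 change of FPKM + 1 of every tested member by role (above the line) and of the other pathway genes by list (below it), coloured by call, with a black bar at each list's median and a dashed green line at the median of all tested genes (-0.095). The medians of the luminal chaperones (-0.21) and the cytosolic and mitochondrial chaperones (-0.31) lie to the left of that line. So do those of translocation and signal peptide cleavage (-0.186), glycosylation and glycan trimming (-0.155), other degradation factors (-0.131) and other luminal folding enzymes (-0.1).

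Other folding enzymes of the lumen moved both ways. Of 25 tested, 2 rose (8.0%) and 6 fell (24.0%), with a median log2 change of -0.10. The background over all tested genes was 12.9% higher and 23.0% lower, so the share of falls lay near it. FKBP11, a proline isomerase of secretory cells, fell from 154 ± 15.2 to 104 ± 12.0 FPKM (log2 change -0.56 ± 0.10 SE, adjusted p = 0.0013 by limma). MESDC2, a chaperone of LDL receptor relatives, fell from 82.0 ± 8.30 to 58.7 ± 1.86 FPKM (limma adjusted p = 0.0016). ERO1A, the oxidase that recharges disulfide isomerases and a gene also raised by hypoxia, rose from 11.0 ± 1.31 to 15.7 ± 0.725 FPKM (log2 change 0.48 ± 0.10 SE, adjusted p = 0.0027 by limma). The count of lower genes was 2 with median-of-ratios scaling and 2 without YAP replicate 1, and the count of higher genes was 1 without YAP replicate 1, YAP replicate 3 or control replicate 1. Of 14 tested collagen-modifying genes, 4 rose (28.6%) and 1 fell (7.14%), with a median log2 change of -0.027. The difference from the same background of 12.9% higher and 23.0% lower was not tested. P4HA1, the catalytic subunit that pairs with P4HB, rose from 69.4 ± 11.1 to 103 ± 6.40 FPKM (log2 change 0.57 ± 0.11 SE, adjusted p = 0.0022 by limma). The lysyl hydroxylase gene PLOD1 rose from 90.4 ± 1.89 to 115 ± 1.32 FPKM (limma adjusted p = 0.0028) and the collagen galactosyltransferase gene COLGALT1 from 109 ± 6.12 to 149.7 ± 7.08 FPKM (limma adjusted p = 0.001). PLOD2, named after its values were seen, rose from 39.5 ± 7.40 to 50.7 ± 6.18 FPKM, a call lost in 4 of the 6 fits without a library (control replicate 1 or 2, YAP replicate 1 or 3), with limma adjusted p from 0.067 to 0.18. MIA3, a cargo receptor for collagen export named in the same way, fell from 17.9 ± 2.18 to 13.9 ± 0.587 FPKM, a call lost without YAP replicate 1 (limma adjusted p = 0.077) and with median-of-ratios scaling (limma adjusted p = 0.06). Without control replicate 1 there were 2 lower genes. Of the stromal markers, the fibrillar collagen genes COL1A1 and COL1A2 rose from 3674 ± 73.9 to 5889.6 ± 166 FPKM and from 2969.8 ± 149 to 4123 ± 169 FPKM (limma adjusted p = 1.7e-04 and 0.0022), while other markers of that list fell, and their part in the changes of the collagen-modifying genes was not tested.

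The genes of glycosylation and glycan trimming showed 1 rise (4.17%) and 7 falls (29.2%) among 24 tested, with a median log2 change of -0.15. Over all tested genes 12.9% rose and 23.0% fell, and no list was tested against these shares. The rise was that of MOGS, the glucosidase that removes the first glucose of the transferred glycan, from 6.91 ± 0.613 to 13.8 ± 0.870 FPKM (log2 change 0.90 ± 0.091 SE, adjusted p = 2.4e-05 by limma). ALG6, a glucosyltransferase gene of glycan assembly, fell from 4.38 ± 0.537 to 2.85 ± 0.160 FPKM (limma adjusted p = 0.0032), and OST4, a subunit gene of the oligosaccharyltransferase, fell from 185 ± 15.1 to 142 ± 4.30 FPKM (limma adjusted p = 0.004). The count of lower genes was 4 with median-of-ratios scaling, without control replicate 1 or without YAP replicate 1. Of 24 genes of translocation and signal peptide cleavage 0 rose and 9 fell (37.5%) by limma, with a median log2 change of -0.19 (0 higher at an unadjusted p under 0.05 and 0 by limma-voom). The signal peptidase subunits SEC11C and SEC11A fell from 35.4 ± 1.75 to 26.4 ± 1.08 FPKM (limma adjusted p = 0.0019) and from 62.5 ± 1.78 to 48.9 ± 2.60 FPKM (limma adjusted p = 0.0043). After median-of-ratios scaling 3 genes of this list were lower, and without YAP replicate 1 there were 5. Other degradation factors had 0 higher (1 at an unadjusted p under 0.05, and 0 by limma-voom) and 6 lower of 21 (28.6%), with a median log2 change of -0.13. VCP, the segregase that extracts ubiquitinated proteins, fell from 151 ± 5.90 to 122 ± 2.90 FPKM (limma adjusted p = 0.0075). UBXN4, an adaptor of VCP, fell from 34.1 ± 4.11 to 27.2 ± 0.433 FPKM (limma adjusted p = 0.021), a call lost in 4 of the 6 fits without a library (control replicate 2 or 3, YAP replicate 1 or 3), with limma adjusted p up to 0.068. RNF139, a ubiquitin ligase gene, fell from 14.1 ± 1.00 to 11.3 ± 1.06 FPKM (limma adjusted p = 0.027), a call lost in 3 (control replicate 3, YAP replicate 1 or 2), with limma adjusted p up to 0.1. After median-of-ratios scaling no gene of this list was lower (VCP, limma adjusted p = 0.05), and over the fits without a library the count ran from 1 (without YAP replicate 1) to 4 (without YAP replicate 3). Without YAP replicate 2 or any 1 control it was 3.

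Transport between the endoplasmic reticulum and the Golgi changed in few genes, with 2 higher (6.06%) and 3 lower (9.09%) of 33 tested and a median log2 change of -0.062. The background was 12.9% higher and 23.0% lower, and the difference was not tested. The count of lower genes was 0 with median-of-ratios scaling and without YAP replicate 1, YAP replicate 3 or control replicate 3, and 1 without YAP replicate 2. Without control replicate 1 there was 1 higher gene. The COPII coat gene SEC23A rose from 57.8 ± 10.4 to 84.1 ± 13.3 FPKM, a call lost without control replicate 1 (limma adjusted p = 0.059), and the SNARE gene BET1 rose from 14.1 ± 1.12 to 18.8 ± 0.992 FPKM (limma adjusted p = 0.005). TMED2, a cargo receptor of transport vesicles, fell from 149.8 ± 11.6 to 124 ± 2.25 FPKM (limma adjusted p = 0.022), a call lost without YAP replicate 1 (limma adjusted p = 0.1), YAP replicate 3 (limma adjusted p = 0.062) or control replicate 3 (limma adjusted p = 0.066). The 3 receptors that retrieve luminal proteins by their KDEL tail did not pass: KDELR1 stood at 148 ± 8.62 FPKM in the controls against 138 ± 12.0, KDELR2 at 132 ± 7.05 FPKM in the controls against 132 ± 6.17 and KDELR3 at 121 ± 5.59 FPKM in the controls against 115 ± 3.94 (limma adjusted p = 0.38, 0.98 and 0.43).

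Chaperones outside the endoplasmic reticulum were called lower as well. Of 30 tested genes of cytosolic and mitochondrial chaperones, 18 fell (60.0%) and 0 rose by limma, with a median log2 change of -0.31 (0 higher at an unadjusted p under 0.05 and 0 by limma-voom), against 15 luminal chaperones with 6 lower. The background was 23.0% lower and 12.9% higher over all tested genes. Differences from it and between these lists were not tested, and the lists were chosen with earlier results of these data known. The count was 14 after median-of-ratios scaling and 14 to 18 without 1 library. HSPD1, the mitochondrial Hsp60, fell from 87.6 ± 7.50 to 57.3 ± 2.51 FPKM (log2 change -0.60 ± 0.083 SE, adjusted p = 2.4e-04 by limma), HSP90AA1, the inducible cytosolic Hsp90, fell from 384 ± 25.8 to 254 ± 18.0 FPKM (log2 change -0.60 ± 0.085 SE, adjusted p = 3.1e-04 by limma) and CCT2, a subunit of the cytosolic chaperonin, fell from 100.1 ± 7.67 to 67.5 ± 1.68 FPKM (log2 change -0.56 ± 0.079 SE, adjusted p = 2.7e-04 by limma). The log2 changes of CALR (-0.55), HSPA5 (-0.50), MANF (-0.52) and DNAJB11 (-0.48) lie near these values. Both sets hold genes with the smallest adjusted p of their lists, whose medians were -0.21 (luminal) and -0.31 (cytosolic and mitochondrial).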

How the data were processed

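RNA sequencing values per gene were deposited by the authors as FPKM for 3 control and 3 YAP libraries of goat adipose mesenchymal stem cells. Tools named in the submitters' processing notes are fastp, HISAT2 and HTSeq. Not given in the sources used here are the genome build, the annotation, the handling of reads that match several genes and the use of strand. The steps between low FPKM gave back read counts, which came out whole within 0.05 reads for 15958 of 15958 genes above 0, and library totals and gene model lengths follow from them. Columns were matched to samples by name, and 6 further per-sample columns were not used, apart from the check for equal values. Gene symbols are those of the files, and 16262 of 16285 have a RefSeq entry (assembly ARS1.2).

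Log2(FPKM + 1) values of 10761 genes (1 FPKM or more in 3 or more libraries) were fitted with limma 3.58.1 (variance trend, R 4.3.3), two-sided, with Benjamini-Hochberg adjustment over all of them and a threshold of 0.05. A fold on this scale understates the change of low genes. The script was tested on simulated data. Named with values per library were the sensors and XBP1, and in each other role group the most abundant gene and up to 5 with the smallest adjusted p. In each list without members up to 3 genes with the smallest adjusted p past the threshold were named. Members and lists were chosen with earlier results of these data known. Alternatives were a pseudocount of 0.1, no filter, median-of-ratios and quantile scaling, a replicate block, no variance trend and leaving out each library. Limma-voom on the recovered reads and removal of each library's length trend by lowess (span 0.3) were added after seeing the data.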

Additional observations from a re-analysis of the deposited data

How the results depend on the processing

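All results rest on 3 libraries a group, and the scaling between libraries changed several calls. DERL3, at 0 to 2 reads, was not measurable at this depth. The 41 tested members kept their direction and their side of the threshold with a pseudocount of 0.1 and with limma-voom on recovered reads, where 4 members were higher and 7 lower as in the FPKM. Without a filter on low values 39 members did so, and 40 without a variance trend.

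The count of higher members was 11 with the length trend removed, where 19.4% of all tested genes were higher. It was 9 with quantile normalization and 1 to 3 over the fits without a library. The share of all genes called higher is not given here for these fits, so these counts are no result about the members. Calls over all genes in either direction ran from 2411 to 3606 over the fits without a library. With median-of-ratios scaling, the medians were -0.116 (luminal chaperones), 0.211 (disulfide isomerases), 0.133 (degradation factors) and 0.188 (translocon) for the members, and -0.011 (other luminal folding enzymes), 0.065 (collagen modification), -0.066 (glycosylation and glycan trimming), -0.096 (translocation and signal peptide cleavage), -0.051 (other degradation factors), 0.022 (endoplasmic reticulum to Golgi transport and retrieval) and -0.215 (cytosolic and mitochondrial chaperones) for the other lists. With quantile normalization, the medians were -0.149 (luminal chaperones), 0.213 (disulfide isomerases), 0.127 (degradation factors) and 0.197 (translocon) for the members, and -0.014 (other luminal folding enzymes), 0.086 (collagen modification), -0.072 (glycosylation and glycan trimming), -0.111 (translocation and signal peptide cleavage), 0.023 (endoplasmic reticulum to Golgi transport and retrieval) and -0.231 (cytosolic and mitochondrial chaperones) for the other lists. With the length trend removed, the medians were -0.123 (luminal chaperones), 0.212 (disulfide isomerases), 0.137 (degradation factors) and 0.206 (translocon) for the members, and -0.006 (other luminal folding enzymes), 0.067 (collagen modification), -0.055 (glycosylation and glycan trimming), -0.089 (translocation and signal peptide cleavage), -0.071 (other degradation factors), 0.013 (endoplasmic reticulum to Golgi transport and retrieval) and -0.202 (cytosolic and mitochondrial chaperones) for the other lists. Without a library the medians ran from -0.246 to -0.158 (luminal chaperones), from 0.06 to 0.152 (disulfide isomerases), from -0.01 to 0.066 (degradation factors), from -0.045 to 0.031 (collagen modification), from -0.195 to -0.123 (other degradation factors), from 0.115 to 0.303 (other stress transcription factors and eIF2alpha arm).

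Changes of sign occurred only in genes not past the threshold. With median-of-ratios scaling, such log2 changes became 0 (HYOU1), 0.035 (UGGT1), 0.012 (ERP29), 0.019 (FKBP2), 0.031 (FKBP14), 0.066 (ERN1), 0.073 (SYVN1), 0.082 (EDEM2) and 0.078 (SEC61B). With quantile normalization, such log2 changes became 0.021 (UGGT1), 0.017 (FKBP2), 0.01 (FKBP14), 0.054 (SYVN1), 0.073 (EDEM2) and 0.084 (SEC61B). With the length trend removed, such log2 changes became 0.014 (UGGT1), 0.036 (ERP29), 0.043 (FKBP2), 0.028 (FKBP14), 0.049 (ERN1), 0.069 (SYVN1), 0.093 (EDEM2) and 0.123 (SEC61B). Without a library they ranged from -0.285 to 0.264 (UGGT1), from -0.07 to 0.125 (SDF2L1), from -0.062 to 0.106 (DNAJB9), from -0.136 to 0.025 (FKBP2), from -0.116 to 0.012 (FKBP14), from -0.088 to 0.109 (ERN1), from -0.013 to 0.118 (EIF2AK3), from -0.066 to 0.315 (SEL1L), from -0.039 to 0.012 (SYVN1), from -0.061 to 0.064 (EDEM2), from -0.092 to 0.076 (SEC61B). YAP1 ranged from -0.028 to 0.054. The cause of these shifts was not tested.

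Control and YAP libraries share replicate numbers, but the labels do not say that a number marks a shared culture, animal or day. Deviations from the group means of same-numbered libraries had correlations of -0.018, 0.591 and 0.597 (numbers 1 to 3), and control replicate 1 correlated best with YAP replicate 2 (0.118). Control replicate 3 with YAP replicate 2 had -0.62, and control replicate 2 with YAP replicate 3 had -0.563. Deviations thus went with the number in replicates 2 and 3, but not in replicate 1. As the labels state no pairing, the numbers were not taken as pairs in the main fit, which leaves this shared pattern in its spread. With a replicate block 8 of the 41 tested members were higher and 11 lower, and 5573 of all 10761 tested genes were called in either direction. Beyond the calls of the main fit, CANX, CRELD2, ATF6 and DERL2 were then lower, and TXNDC5, PPIB, SERPINH1 and EDEM1 higher.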

Other observations

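Further ratios between members of a library, chosen after their values were seen and given without a test, compare genes with related roles. BiP to its exchange factor, HSPA5 to HYOU1, was 11.7, 14.1 and 13.4 in the controls and 9.66, 10.1 and 9.67 in the libraries labelled YAP. The ratio of HSPA5 to SIL1, the other exchange factor, was 18.3, 20.2 and 23.1 in the controls and 15.1, 14.3 and 17.5 in the libraries labelled YAP. DNAJB11 to DNAJB9 was 8.94, 7.9 and 6.91 in the controls and 5.79, 5.57 and 5.05 in the libraries labelled YAP. Between stress-inducible luminal proteins, MANF to SDF2L1 was 3.72, 3.26 and 4.01 in the controls and 2.61, 2.26 and 2.56 in the libraries labelled YAP. PDIA4 to PDIA5 was 3.95, 3.63 and 3.45 in the controls and 2.34, 2.28 and 2.21 in the libraries labelled YAP. These 5 ratios were lower in all 3 libraries labelled YAP than in any control. SEC61A1 to SEC61B, at 0.936, 0.712 and 0.847 in the controls and 1.01, 0.858 and 1.04 in the libraries labelled YAP, overlapped between the groups.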
